A study of Mus musculus with 13 samples.

Results

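Mouse has 6 genes for conventional actin, and their transcripts were followed here across 13 arrays of embryonic stem (ES) cells treated with inhibitors of p38 mitogen-activated protein kinase. The genes are Acta1, Acta2, Actb, Actc1, Actg1 and Actg2, 6 of the 8388 genes that a probe set names alone. Their values come from the probe sets whose platform annotation names one of them alone, together with the Actb control probe sets that Affymetrix places on every array. There were 14 such probe sets among 12654 on the MG-U74A array and 14 among 12488 on the MG-U74Av2 array. Actb had 8 of them, Actc1 had 2, and each of the other genes had 1. The genes were picked with their treated to control ratios known, so those ratios are given as a description and support nothing.

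The samples came from 2 mouse ES cell lines, S1, which grows without feeder cells, and D4, which needs feeders and was passaged without them before the experiment. Both were kept with leukaemia inhibitory factor (LIF), the cytokine that holds ES cells undifferentiated, then plated at 10000 cells per ml and lysed after 3 days without it. RNA came from the adherent cells alone. The groups were D4 cells with PD169316 and D4 cells left untreated (1 U74A array each), S1 cells with PD169316 (2 U74A and 2 U74Av2 arrays), S1 cells with SB203580 (1 and 2) and untreated S1 cells (2 and 2). Both compounds were given at 10 µM. They are pyridinyl imidazoles that inhibit p38, and they differ on the 2-phenyl ring, where PD169316 carries a nitro group and SB203580 a methylsulfinyl group. No label says that replicates came from different cultures, and the spread between arrays may be technical. Nor is it stated whether same-numbered arrays of the 2 versions carried the same RNA.

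Actin polymerizes into filaments that give cells their shape and drive their movement. Actb and Actg1 encode the cytoplasmic actins found in nearly all cells, Acta2 and Actg2 the smooth muscle actins, and Acta1 and Actc1 the skeletal and cardiac muscle actins. Many actin genes are activated by serum response factor (SRF), which binds the CArG box, and SRF is in turn driven by cofactors, some of which are held back by actin monomers. The encoded proteins are nearly identical and the coding sequences are alike, so an array probe for one isoform can also capture another.

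Promoters from RefSeq (GRCm38.p6) were searched for 4 of the genes. Those of Acta1, Actc1 and Actg1 are shown because the Acta1 signal had the largest difference among the members, and the other isoforms are set beside it. Each line holds the 250 bases before the annotated start, written 5′ to 3′ on the gene's strand. Capitals mark CArG boxes, read as CC, 6 core bases and GG, with at most 1 C or G in the core; the form is the same on both strands.

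Acta1: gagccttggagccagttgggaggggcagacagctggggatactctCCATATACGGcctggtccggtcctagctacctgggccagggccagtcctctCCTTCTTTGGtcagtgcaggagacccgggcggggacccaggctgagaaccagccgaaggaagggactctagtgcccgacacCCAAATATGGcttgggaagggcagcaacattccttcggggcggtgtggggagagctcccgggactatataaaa
Actc1: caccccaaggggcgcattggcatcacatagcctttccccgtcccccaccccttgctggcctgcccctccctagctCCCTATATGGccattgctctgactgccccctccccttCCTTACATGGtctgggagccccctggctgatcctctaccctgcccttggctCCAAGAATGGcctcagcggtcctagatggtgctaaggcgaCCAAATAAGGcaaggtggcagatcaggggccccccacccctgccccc
Actg1: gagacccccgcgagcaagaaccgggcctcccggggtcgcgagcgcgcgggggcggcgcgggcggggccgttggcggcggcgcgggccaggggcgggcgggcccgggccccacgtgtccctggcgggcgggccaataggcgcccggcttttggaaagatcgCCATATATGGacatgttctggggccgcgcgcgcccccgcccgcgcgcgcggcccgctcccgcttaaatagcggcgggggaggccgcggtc

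These windows lie on the minus strand at chr8:123894776-123895025 (Acta1), chr2:114052876-114053125 (Actc1) and chr11:120348496-120348745 (Actg1). The Acta2 window, at chr19:34255374-34255623 on the same strand, is not shown because it reaches into the annotated gene, whose outer end is at position 34255585. A CArG box whose core is A or T throughout started at position -73 in Acta1, -47 in Actc1 and -90 in Actg1, counted from the start used by the table. Among 32851 RefSeq promoters searched in the same way over 250 bases before and 50 after the start, 1.63% held such a box. With 1 C or G allowed in the core, Acta1 had further matches at -205 and -154, Acta2 had matches at -84 and -34, and Actc1 had matches at -175, -138 and -87. That looser form was present in 9.98% of the promoters. The TATA box TATAAA, searched on both strands, occurred at -7 in Acta1 and at 34 bases past the start in Actc1, against 13.6% of all promoters. A match describes only the letters in the window.

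Signals are Microarray Suite intensities, scaled by the authors to a trimmed mean of 300 on each array, and the tables of the 2 array versions were scaled apart, so no level is compared across them. The median signal of an array lay between 89.7 and 133.8. Undifferentiated ES markers were present: 8 of 10 measured markers on U74A reached a signal of 100 on at least 2 arrays, among them Pou5f1 and Sox2. Their summed signal on U74A was 12554 in PD169316-treated and 11967 in untreated D4 cells. In S1 cells it was 10418 to 13261 with PD169316, 18306 with SB203580 and 15976 to 21194 in controls. On U74Av2 it was 17379 to 20112 with PD169316 and 20744 to 21404 with SB203580, all below the 25873 to 28086 in controls. Summed fibroblast markers, which feeder cells would carry, were 1867 with PD169316 and 1863 without it in D4 cells, and in S1 cells 1239 to 2130 with PD169316, 1524 with SB203580 and 1448 to 2296 in controls. On U74Av2 they were 2309 to 2737 with PD169316, 2031 to 2199 with SB203580 and 2414 to 3026 in controls. Of 11 fibroblast markers measured on U74A, 5 reached 100 on at least 2 arrays (Col1a1, Lum, Fbln1, S100a4 and Thy1), and of 12 on U74Av2, 4 did (Col1a2, Col1a1, Fbln1 and Thy1). Arrays were hybridized on 5 days, numbered here 1 to 5. D4 was hybridized on day 1, when no S1 array was, and all first S1 replicates were hybridized on day 3. Array lots, numbered 1 to 4, differed too. On U74A, D4 and the S1 arrays of day 2 were of lot 4. The U74A control of day 3 was of lot 1 and the treated arrays of that day were of lot 3, so these pairs differed in lot. All U74Av2 arrays were of lot 2. The 3′ signal of the Actb controls divided by the 5′ signal, a measure of transcript integrity, was 3.31 on the U74A and 3.21 on the U74Av2 control array of day 3, against 1.46 to 2.25 on the other 11 arrays. The same ratio of the Gapdh controls was 1.419 on the U74A control of day 3, above the 0.903 to 1.209 of the other U74A arrays. On the U74Av2 control of day 3 it was 1.575. The SB203580 array of day 4 gave 1.706, and the remaining U74Av2 arrays gave 0.874 to 0.966.

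Acta1, the skeletal muscle actin, had the largest difference among the members. Its probe set gave signals of 365.1 and 384.4 with PD169316, 42.7 with SB203580 and 72.4 and 67.2 in untreated S1 cells on U74A. On U74Av2 the signals were 423.0 and 235.6 with PD169316, 85.0 and 83.7 with SB203580, and 13.2 and 14.1 in controls. In D4 cells the signal was 893.0 with PD169316 and 210.8 without it. Every PD169316 array lay above every SB203580 and control array of its line and version. The SB203580 array lay below both controls on U74A and both SB203580 arrays lay above both controls on U74Av2, so the order of these neighbours changed with the version. Group means on U74A were 375 ± 13.6 with PD169316 and 69.8 ± 3.68 in controls (SD, n = 2 each), and on U74Av2 they were 329 ± 133 and 13.7 ± 0.636 (SD, n = 2 each).

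Signals under 32 were set to 32 before taking log2, so a ratio against a dimmer control is a lower bound. Acta1 was higher with PD169316 in 4 of 4 S1 pairs. The log2 ratio of the pairs on U74A was 2.33 on day 3 and 2.52 on day 2, and on U74Av2 the signal was at least 13.2-fold higher on day 3 and at least 7.36-fold higher on day 5. The D4 pair gave 2.08. With SB203580 the log2 ratio was -0.76 on U74A, where the SB203580 signal was lower, while on U74Av2 the signal was at least 2.66-fold higher on day 3 and at least 2.62-fold higher in the second pair, whose arrays were hybridized on days 4 and 5.

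Acta2, the smooth muscle actin that also marks contractile fibroblasts, was dim. Its probe set gave 63.1 and 131.8 with PD169316, 14.5 with SB203580 and 4.2 and 70.8 in controls on U74A. The U74Av2 signals were 151.1 and 55.6 with PD169316, 35.1 and 49.2 with SB203580, and 4.8 and 7.3 in controls. In D4 cells it gave 354.7 with PD169316 and 54.2 without. The PD169316 signal was higher than its paired control in 4 of 4 S1 pairs and in the D4 pair, yet on U74A the groups overlapped, since one control (70.8) exceeded one treated array (63.1). Of the S1 arrays in each version, 1 alone reached a signal of 100, so Acta2 was not tested in S1. The log2 ratio of the D4 pair was 2.71, and those of the S1 pairs, bounded below where the control was under 32, were between 0.80 and 2.24.

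**Figure D1:**
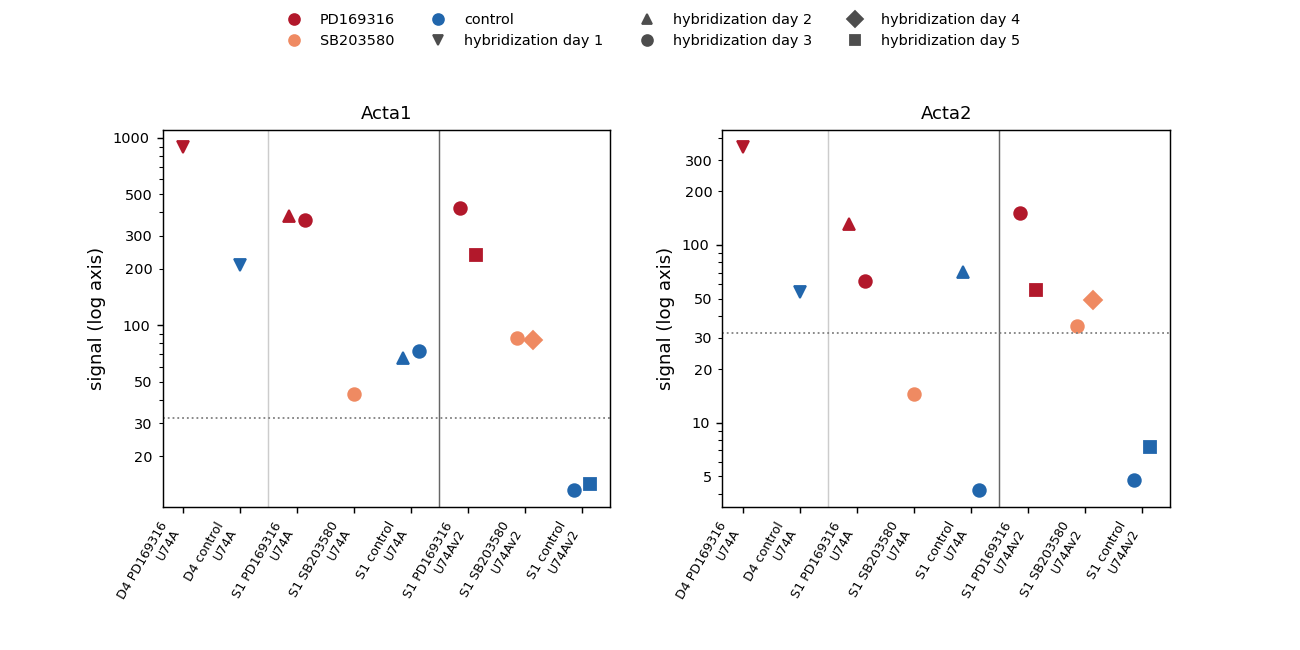
Signal of Acta1 and Acta2 on each of the 13 arrays, on log axes, grouped by line, treatment and array version, with symbols for the hybridization day. The dotted line marks 32. Acta1 with PD169316 lies between 235.6 and 423.0 in S1 cells, above all SB203580 and control arrays of S1, and its D4 arrays lie above the S1 arrays of the same treatment.

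Acta1 and Acta2 moved together over arrays, with Pearson's r of log2 signals of 0.84 over the 7 U74A arrays and 0.89 over the 6 U74Av2 arrays. Those arrays share the treatment groups, so the values describe the same contrast. The annotated muscle markers did not separate the treatments in the same way. Their summed signal on U74A was 1122 with PD169316 and 1151 without it in D4 cells. In S1 cells it was 1255 to 1555 with PD169316, 858 with SB203580 and 851 to 1522 in controls. On U74Av2 it was 1257 to 1824 with PD169316, 1203 to 1563 with SB203580 and 1377 to 1884 in controls. Of 21 muscle markers measured on U74A, 7 reached 100 on at least 2 arrays, and Myl2 did not exceed 32 on any. Summed smooth muscle markers (5 genes) on U74Av2 were 401 to 611 with PD169316, 560 to 639 with SB203580 and 277 to 344 in controls, while on U74A the S1 values were 390 to 399 with PD169316, 229 with SB203580 and 261 to 468 in controls. Their part in the Acta1 and Acta2 signals was not tested. In lysates of whole cultures, a change in the number of cells that express a gene and a change in its RNA per cell cannot be told apart.

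Actb, the cytoplasmic beta actin often used as a loading reference, was read by 3 control probe sets along the transcript (3′, middle and 5′), 3 controls of the opposite strand, and 2 further probe sets, one marked f for a family of like sequences and one marked s for several transcripts. The 3′ control gave 11715 and 23845 with PD169316, 9135 with SB203580 and 7144 and 22047 in controls on U74A. On U74Av2 the 3′ control gave 11624 and 6663 with PD169316, 8821 and 8228 with SB203580, and 7099 and 6084 in controls. In D4 cells it gave 28814 with PD169316 and 21414 without it. PD169316 and control arrays overlapped in both versions. The S1 arrays on U74A instead split by day, where the day 2 arrays were of array lot 4 and those of day 3 of lots 1 and 3. Day and lot cannot be told apart here. The day 2 signal was 2.04 times the day 3 signal with PD169316 and 3.09 times in controls, while the median ratio over all tested probe sets was 1.03 and 1.10. For the 5′ control those ratios were 2.24 with PD169316 and 6.13 in controls.

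Within pairs, the 3′ control was higher with PD169316 in 4 of 4 S1 pairs, by a log2 ratio between 0.11 and 0.71, and by 0.43 in the D4 pair. It was higher with SB203580 in 3 of 3 pairs, by 0.31 to 0.44. For the 5′ control the largest log2 ratios, 1.35 and 1.22 with PD169316 and 1.20 and 1.45 with SB203580, were those of day 3, where both control arrays had the high 3′ to 5′ ratio; the other pairs of both compounds gave -0.11 to 0.45. A low 5′ signal on a control array raises both its 3′ to 5′ ratio and the treated to control ratio of the 5′ control, so that match was fixed in advance. The part of transcript integrity in these ratios was not tested. The opposite-strand controls carried 0.98% to 5.13% of the signal of their counterparts.

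**Figure D2:**
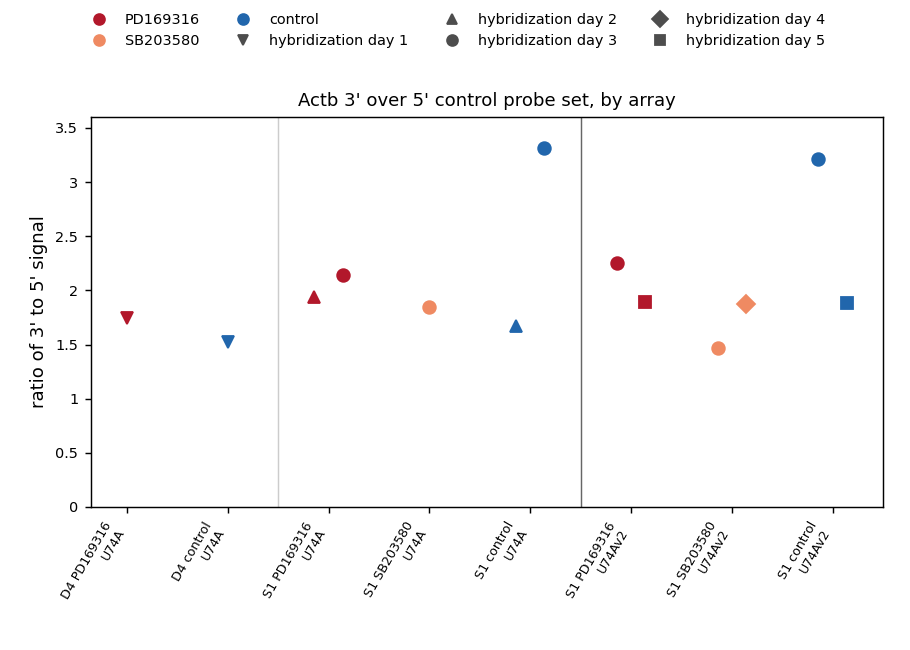
Ratio of the 3′ to the 5′ Actb control signal on each of the 13 arrays, grouped by line, treatment and array version. The control arrays of day 3 stand at 3.31 and 3.21, and the other 11 arrays lie between 1.46 and 2.25.

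The other Actb probe sets were lower with PD169316 in most S1 pairs. On U74A the family (f) probe set gave 552.7 and 532.0 with PD169316, 740.1 with SB203580 and 2286.6 and 2581.1 in controls. The U74Av2 signals were 1052.3 and 1295.3 with PD169316, 836.2 and 520.1 with SB203580, and 3356.0 and 865.1 in controls. In D4 cells it gave 1010.0 with PD169316 and 1162.4 without it. On U74A both PD169316 arrays lay below both controls, as for 14.7% of probe sets tested there, but on U74Av2 the control of day 5 lay below both PD169316 arrays. The S1 pairs gave log2 ratios of -2.05, -2.28 and -1.67 with PD169316, and 0.58 for the pair of day 5, while the D4 pair gave -0.20. With SB203580 it was lower in 3 of 3 pairs, at -1.63, -2.01 and -0.73.

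The shared (s) probe set gave 619.5 and 537.8 with PD169316, 885.3 with SB203580 and 861.9 and 1749.5 in controls on U74A. On U74Av2 the values were 783.6 and 1139.2 with PD169316, 1043.8 and 255.0 with SB203580, and 1172.2 and 1045.7 in controls, and in D4 cells 566.0 with PD169316 and 803.5 without. The array of 255.0 was the SB203580 array of day 4, and on U74Av2 the PD169316 and control arrays overlapped. Over the 7 U74A arrays, log2 signals of the family probe set followed those of the shared one (r = 0.77) and not those of the 3′ control (r = -0.10). On the 6 U74Av2 arrays the same correlations were 0.66 and -0.22. What each of these probe sets captured beyond Actb was not tested.

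**Figure D3:**
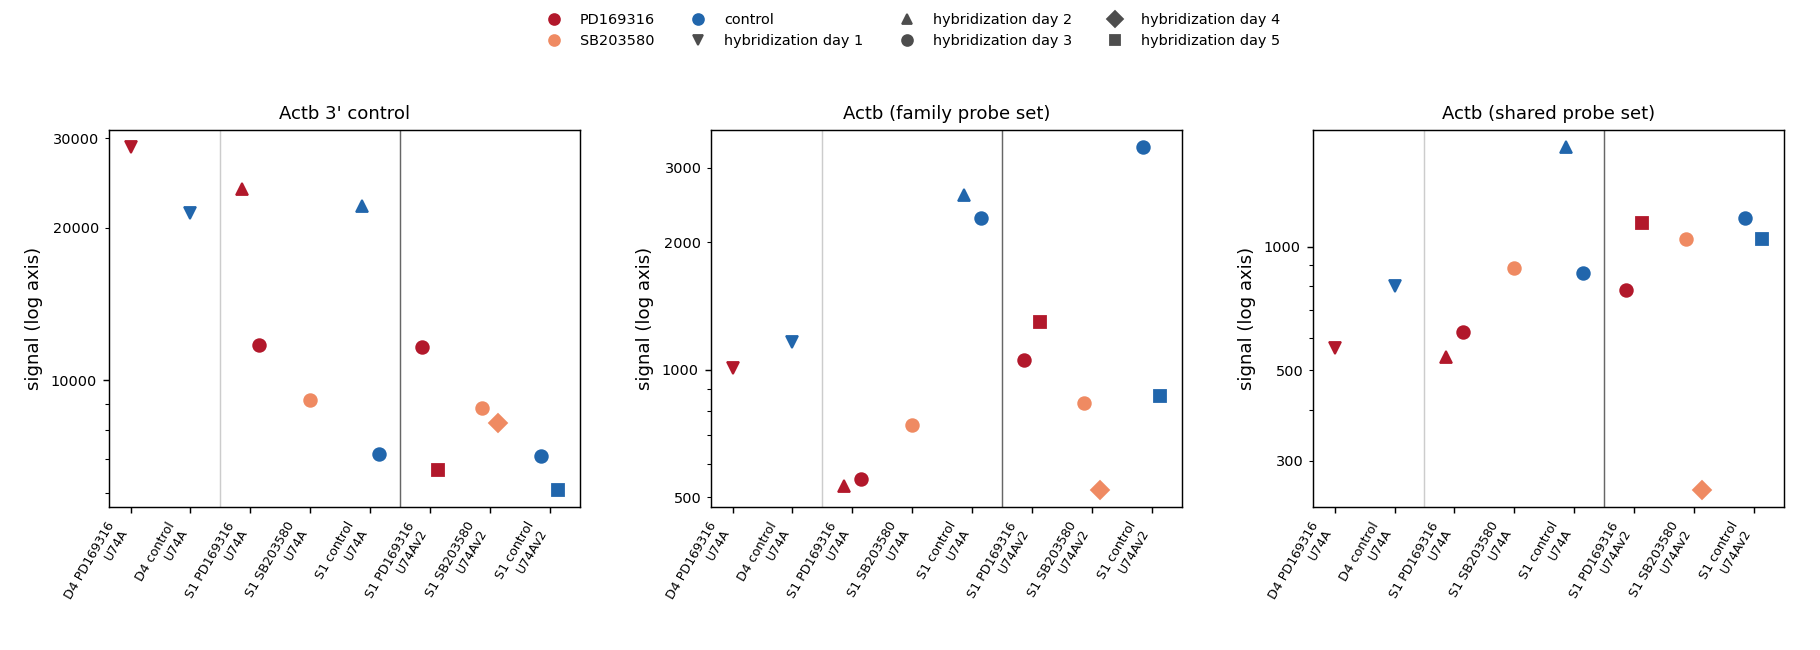
Signal of 3 probe sets annotated to Actb on each of the 13 arrays, on log axes, with symbols for the hybridization day. The 3′ control splits by day, and so by array lot, on U74A in S1 cells. The family probe set is lowest there with PD169316 (532.0 and 552.7) and highest in controls (2286.6 and 2581.1).

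Actg1, the cytoplasmic gamma actin, was bright. Its probe set gave 15830 and 13942 with PD169316, 14998 with SB203580 and 11026 and 20639 in controls on U74A. The U74Av2 values were 17643 and 16850 with PD169316, 17376 and 18526 with SB203580, and 15116 and 13540 in controls. In D4 cells it gave 19210 with PD169316 and 17901 without. Treated and control arrays overlapped on U74A. On U74Av2 all 4 treated arrays lay above both controls, as for 7.13% of the probe sets tested on that version, with PD169316 and SB203580 arrays overlapping each other in part. The root mean square of its log2 signals around the mean of each table was 0.23 over the 13 arrays, against 0.57 for the 3′ Actb control and 1.44 for Acta1.

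Actc1, the cardiac actin, was read by 2 probe sets that behaved differently. The probe set marked i, which holds a reduced set of probe pairs, did not reach a signal of 100 on any S1 array. On U74A it gave 9.6 and 6.4 with PD169316, 36.1 with SB203580 and 21.5 and 50.9 in controls. On U74Av2 it gave 53.6 and 22.3 with PD169316, 29.0 and 35.0 with SB203580, and 13.4 and 15.0 in controls. The PD169316 arrays thus lay below both controls on U74A and above both on U74Av2. The highest signal of this probe set was 142.1 in untreated D4 cells, against 10.4 with PD169316, a log2 ratio of -2.15 in which the treated signal was set to 32. The family probe set gave 280.9 and 580.1 with PD169316, 200.6 with SB203580 and 169.4 and 474.8 in controls on U74A. On U74Av2 the family probe set gave 204.9 and 211.9 with PD169316, 214.0 and 274.2 with SB203580, and 283.4 and 188.8 in controls, and in D4 cells 715.2 with PD169316 and 612.6 without. The groups overlapped, and the higher S1 arrays on U74A were those of day 2.

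Actg2, the enteric smooth muscle actin, was read by 1 family probe set. It gave 282.7 and 537.8 with PD169316, 246.7 with SB203580 and 150.1 and 460.8 in controls on U74A. On U74Av2 the signals were 227.7 and 204.8 with PD169316, 338.4 and 330.9 with SB203580, and 254.5 and 196.2 in controls, and in D4 cells 537.5 with PD169316 and 309.5 without it. PD169316 and control arrays overlapped in both versions, and SB203580 arrays were above all others on U74Av2, as for 5.36% of probe sets tested there, but not on U74A. Over the 7 U74A arrays, log2 signals correlated with those of the 3′ Actb control at 0.93 for Actg2 and 0.99 for the Actc1 family probe set. Over the 6 U74Av2 arrays, where no array was from day 2, the values were 0.38 and -0.01. How much of these family probe sets' signal came from other actins was not tested.

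**Figure D4:**
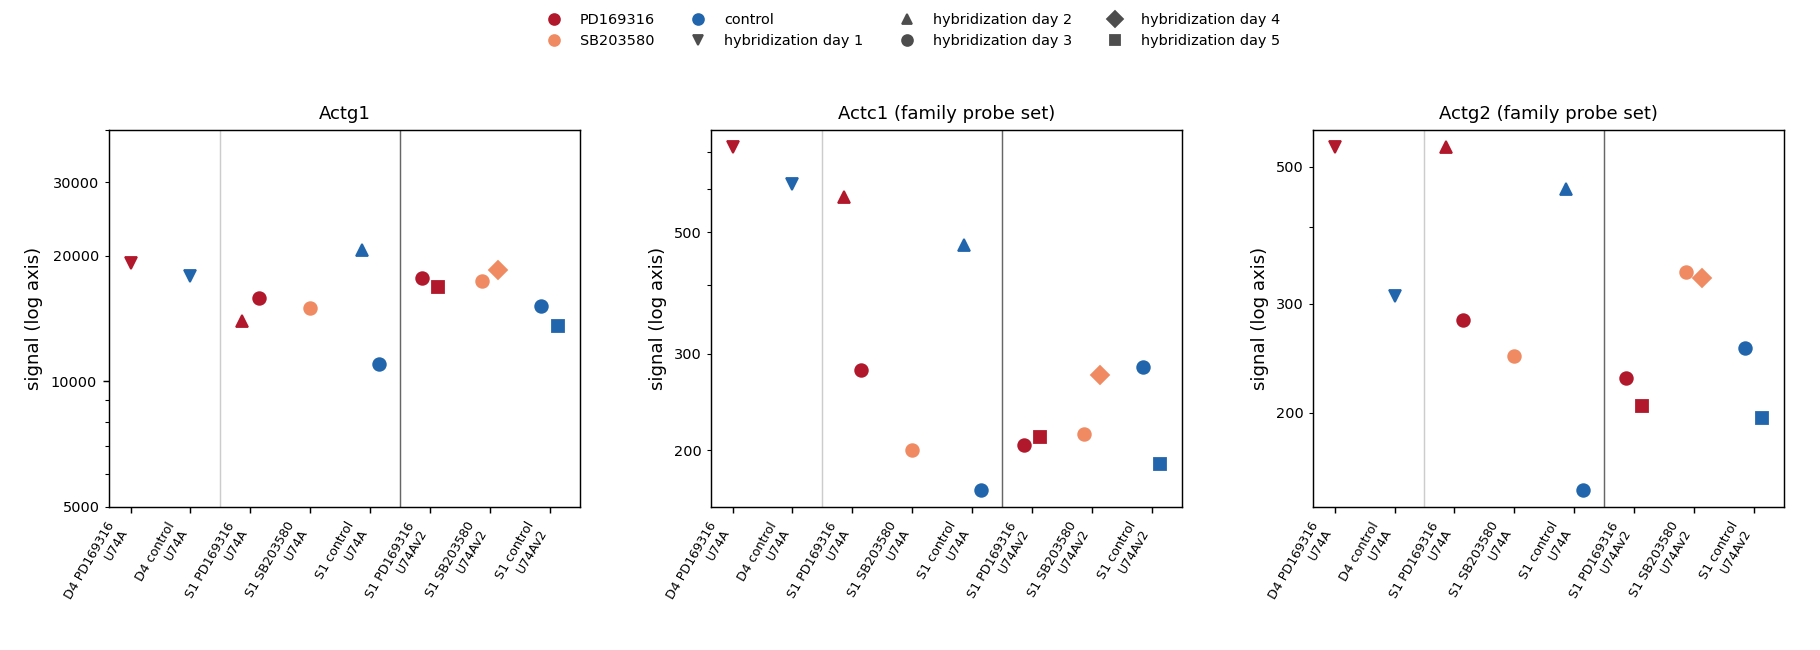
Signal of Actg1, Actc1 (family probe set) and Actg2 on each of the 13 arrays, on log axes, with symbols for the hybridization day. Treated and control arrays of S1 overlap on U74A for all 3 probe sets, and on U74A the Actc1 and Actg2 arrays of day 2 stand above those of day 3.

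Across all probe sets, the S1 groups were tested with limma within each version and the z scores of both versions were combined. Of the 14 members, 12 in each version passed the filter, which asked for 2 or more arrays with a signal of 100 or higher. Acta1 passed it through its PD169316 arrays alone, so that it had to differ. In PD169316 against control, 2 of the 12 passed an adjusted p of 0.05, beside 1.88% of the 5375 probe sets tested (1.38% higher and 0.502% lower). These were Acta1, with a mean log2 fold change of 2.86 ± 0.41 (SE), and the Actb family probe set, with -1.35 ± 0.30. The other members with signals from the coding strand ranged from -0.66 ± 0.33 for the shared Actb probe set to 0.65 ± 0.40 for the 5′ Actb control. Actg1 stood at 0.12 ± 0.20, the Actc1 family probe set at 0.18 ± 0.35 and Actg2 at 0.26 ± 0.35. Members were chosen with this contrast known, and nothing is read from their count. Neither of these probe sets was called on U74A alone, where 0.0176% of probe sets were, or on U74Av2 alone, where 0.128% were. The call of the Actb family probe set was lost without the control arrays of day 3, where its log2 fold change was -0.91. It was also lost without the first U74Av2 control alone (-0.87), without either U74A array with PD169316 (-1.37 and -1.34) and without the first U74Av2 array with PD169316 (-1.28). With its log2 fold change as in the full fit, it was lost as well with no filter, with eBayes without a trend and when the versions were taken as correlated. Acta1 lost its call with no filter. With the replicate number as a block, which is also the hybridization day except for the SB203580 array of day 4, 2 members and 197 probe sets in all were called. With the hybridization day itself as a block, 3 members and 253 probe sets were called, and the member added was the 5′ Actb control.

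Signals did not overlap between PD169316 and control in either version, with PD169316 higher, for Acta1 and for 6.81% of the probe sets tested. For Acta1 this was fixed in advance, since it passed the filter through its PD169316 arrays alone. The 3′ Actb control and Actg1 did not meet that criterion. In SB203580 against control, no probe set was called by limma (0%, with 248 at an unadjusted p under 0.05). Acta1 stood at 0.35 ± 0.46 and the Actb family probe set at -1.54 ± 0.32. Without the second U74Av2 control, the Actb family probe set was called, at -2.03, and it was called with hybridization day as a block, at -1.56. Its SB203580 signals were below all controls in both versions, which held for 7.67% of the probe sets tested.

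**Figure D5:**
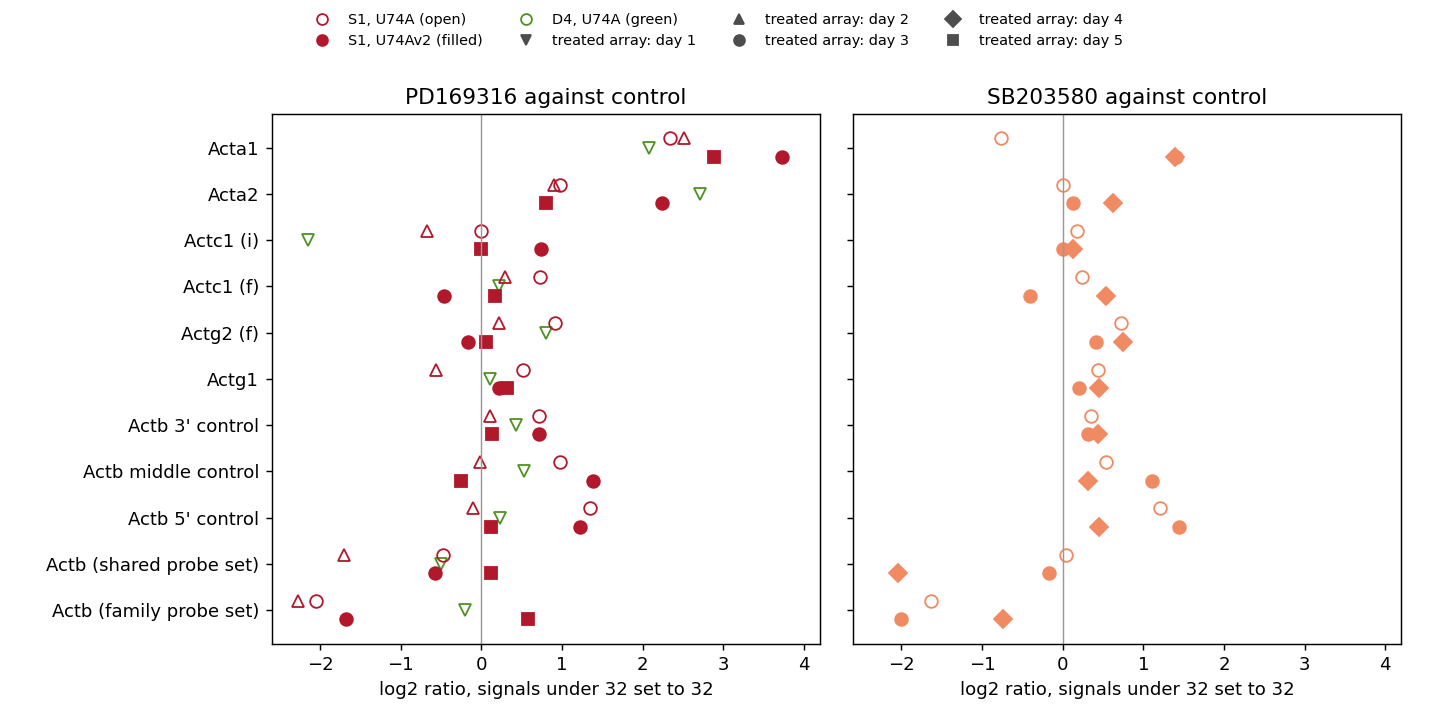
Log2 ratio of treated to control signal for each pair of arrays and 11 actin probe sets, with PD169316 at left and SB203580 at right; signals under 32 were set to 32. Acta1 lies between 2.08 and 3.73 in all PD169316 pairs, and the Actb family probe set lies below 0 in all pairs but the PD169316 pair of day 5.

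The compounds were compared at the same dose and time. In PD169316 against SB203580, 1 of the 12 members tested was called, Acta1, beside 0.688% of the 5375 probe sets. Its log2 fold change was 2.52 ± 0.46 (95% interval 1.62 to 3.42), and the PD169316 signals were above the SB203580 signals on both versions, which held for 11.7% of the probe sets tested. Acta1 passed the filter through its PD169316 arrays alone, so that order was fixed in advance and nothing is read from it or from the call. The call was lost with no filter, with a minimum signal of 200, on either version alone, when the versions were taken as correlated, and when either U74Av2 array with SB203580 was left out. With hybridization day as a block, Acta1 stood at 2.62 and was called, beside 125 probe sets in all, against 37 without a block. The ratios of both compounds to control were known when the genes were chosen, so this difference is a description too.

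For the other isoforms no difference between the compounds passed the test. The intervals of the log2 difference were -0.49 to 0.42 for Actg1, -0.235 to 1.15 for the 3′ Actb control, -0.44 to 0.81 for the Actb family probe set, -0.40 to 1.19 for the Actc1 family probe set and -0.78 to 0.81 for Actg2. Each interval gives the differences that are compatible with the signals of these few arrays, and it is not a limit of detection. Equal signals with both compounds were therefore not shown. Acta2 was not tested, and its PD169316 signals (63.1 and 131.8 on U74A, 151.1 and 55.6 on U74Av2) lay above its SB203580 signals (14.5 on U74A, 35.1 and 49.2 on U74Av2) in each version.

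The signals of both lines were also known when the genes were chosen, so the line comparison is a description as well. In a limma fit on U74A with treatment as a term, no probe set was called between D4 and S1 (0% of 6225, with 390 at an unadjusted p under 0.05), and 13 members were tested. Acta1 was higher in D4 than in S1 in both treatments: 893.0 in D4 against 365.1 and 384.4 in S1 with PD169316, and 210.8 in D4 against 72.4 and 67.2 in S1 without it. Its log2 difference was 1.42 ± 0.39 (95% interval 0.57 to 2.28). Acta2 differed by 1.07 ± 0.73, the Actc1 family probe set by 0.97 ± 0.45 and the 3′ Actb control by 0.78 ± 0.40. D4 was close to the S1 arrays of day 2 for the 3′ Actb control: 28814 in D4 against 23845 in S1 with PD169316, and 21414 in D4 against 22047 in S1 without it. With the S1 arrays of day 2 alone, the log2 difference of D4 over S1 was 1.43 for Acta1 and 0.12 for the 3′ Actb control. Line and hybridization day cannot be told apart, and of the S1 arrays on U74A only those of day 2 shared the array lot of D4.

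Whether the PD169316 change differed between the lines was read as an interaction in the same arrays. No probe set was called (0% of 6225, with 149 at an unadjusted p under 0.05). The change in D4 minus that in S1 was -0.34 ± 0.79 for Acta1 (95% interval -2.14 to 1.46). It was 1.77 ± 1.38 for Acta2 (-1.38 to 4.92) and 1.96 ± 0.54 for the Actb family probe set (0.72 to 3.20), which was not called. With 1 D4 array per treatment, assumed to vary like those of S1, the interval for Acta1 spans a difference between the lines of either sign.

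The genes around actin were read from lists of SRF cofactors, SRF targets and actin regulators. These lists and those of cell type markers were chosen with earlier results of these data known. Their counts and medians are therefore a description, and nothing is read from them. Of 19 SRF targets tested other than actins, 3 were called higher and 0 lower with PD169316 against control (1.38% of all probe sets were called higher), with a median log2 fold change of 0.54 against 0.03 over all probe sets. They were Tagln, an actin-binding protein of smooth muscle, at 2.66 ± 0.28, Actn1, the cross-linker alpha-actinin, at 1.35 ± 0.20, and Ccn1, a secreted matrix protein, at 1.49 ± 0.38. Tpm4, a tropomyosin that lines the filament, stood at 0.88 ± 0.22 and Myh9, the heavy chain of non-muscle myosin, at 0.80 ± 0.24, and neither was called. A fit that counts the versions as correlated left 2 of the 3 (Tagln and Actn1) and 12 of the 101 calls over all probe sets, and 2 were also left without the day 3 controls; leaving out 1 array at a time gave 2 to 5, with 5 without the second U74Av2 array with PD169316. With hybridization day as a block 5 were called, Tpm4 and Myh9 among them. None of Tagln, Actn1 and Ccn1 was called with no filter or on U74A alone, and on U74Av2 alone only Tagln was. Ccn1 also lost its call at a floor of 16 and under quantile normalization, where Tagln and Actn1 kept theirs. Leaving out any 1 control, either U74A array with PD169316 or the first U74Av2 array of either compound lost the Ccn1 call too. Of 15 genes of actin monomer binding and turnover, Tmsb4x, which sequesters monomers, was called at 2.32 ± 0.30. That call was lost with no filter and on either version alone. None of 3 SRF and cofactor genes, 7 nucleation genes, 7 chaperonin genes or the 1 actin-related gene tested was called. With SB203580 against control, no gene of these lists was called, with Tagln at 1.43 ± 0.32 and Tmsb4x at 1.12 ± 0.33. Nor was any of them called between the compounds in the full fit. With hybridization day as a block Tagln (1.33), Tmsb4x (1.31) and Cct3 (-0.83), a subunit of the chaperonin, were called. Tagln (1.23) and Tmsb4x (1.20) were called with the replicate block, and without the second U74A control or the second U74Av2 array with PD169316. Tagln was called as well without the first U74A control or the second U74A array with PD169316. The SRF cofactor Elk1 was called between the compounds with eBayes without a trend, at 1.62. Of 7 undifferentiated ES markers tested, 3 were called lower and 0 higher with PD169316 against control (0.502% of all probe sets were called lower). Called or not, 5 of the 7 had a negative log2 fold change and 2 a positive one. The 3 called lower are named next. They were the growth factor Fgf4 at -1.08 ± 0.23, the chromatin factor Utf1 at -0.90 ± 0.22 and the Nodal co-receptor Tdgf1 at -1.91 ± 0.45. None of the 3 was called when the versions were taken as correlated, with eBayes without a trend or without the day 3 controls. Nor was any of the 3 called with no filter or on either version alone. Leaving out 1 array at a time gave 0 to 3 calls, with 0 without the first U74A or the first U74Av2 array with PD169316 or the second U74Av2 control, while 4 were called with hybridization day as a block. Utf1 was also called between the compounds, at -1.03 ± 0.26 for PD169316 over SB203580. That call was lost when the versions were taken as correlated, with no filter and with eBayes without a trend. It was also lost at a floor of 64, under quantile normalization and on either version alone. Leaving out either U74A array with PD169316, either U74Av2 control or the first U74Av2 array with PD169316 lost it too. The part of these markers in the actin signals was not tested.

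The genes most like each actin over the 13 arrays were ranked by the root mean square difference of log2 signals, centred within each table. For Acta1 they were Krt8, a keratin of simple epithelia (0.68), Lgals1, a galactose-binding lectin (0.68), and Wfdc2 (0.68), against 1.44 for Acta1 around its own mean and a median of 1.49 over all genes. For Acta2 they were B2m, the light chain of class I molecules (0.46), the keratin Krt18 (0.53) and Cyba (0.54). For Actg1 they were Brd7 (0.13), Tpt1 (0.15) and Rab18 (0.15). For the 3′ Actb control they were Tceal9 (0.24), Sema4f (0.24) and the Actc1 family probe set (0.27). The Actc1 family probe set had Spef1 (0.27), the 3′ Actb control (0.27) and Fzd8 (0.28), and Actg2 had Commd1 (0.27), Ssx2ip (0.29) and the 3′ Actb control (0.305). These distances rest on the same arrays and days as the values above.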

How the data were processed

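Mouse ES cell RNA was hybridized to 13 Affymetrix arrays, of which 7 were MG-U74A and 6 MG-U74Av2. Each deposited value is the intensity of a probe set, as calculated by the authors with Microarray Suite 5.0 and scaled to a trimmed mean of 300, per the labels. Hybridization days and array lots were read from other fields of the authors' deposited experiment records. No per-sample column was left unused. Groups came from sample titles. The labels name no software beyond this.

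Signals under 32 were set to 32 and turned into log2, which understates changes of dim genes. Affymetrix control probe sets other than those of Actb were left out of the fits. A probe set entered a fit if its signal was 100 or higher on 2 or more of its arrays. Fits used lmFit, contrasts.fit and eBayes (trend) of limma 3.58.1 under R 4.3.3. Tests were two-sided and p-values were adjusted by Benjamini-Hochberg, with a threshold of 0.05. All S1 arrays of a version shared one estimate of the spread, with a group of 1 array taken to vary as much as the rest. Moderated statistics were turned into z scores, which were summed over both versions and divided by the square root of the number of versions. The fold change is the mean of both versions. The procedure was tested on simulated data. Precision is limited by how few arrays there were.

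The members and lists were chosen with earlier results of these data known, and 1 list is not reported here. All actin probe sets are named, and from each list the genes past the threshold and those of smallest p in PD169316 against control, of which a part is given here, and the 3 genes most like each actin. Alternatives covered the floor, the filter, quantile normalization, the trend, a replicate block, a block on hybridization day, the correlation between versions, single versions and leaving out arrays. Promoters are from RefSeq (GRCm38.p6).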

Additional observations from a re-analysis of the deposited data

How the results depend on the processing

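No result reversed its direction where it was called. In PD169316 against control, 2 actin probe sets were called. The number was 0 with no filter, with U74Av2 alone and with U74A alone, and 1 with eBayes without a trend, with the correlation of z scores allowed for and without the control arrays of day 3; in these 3 the Actb family probe set was lost. In PD169316 against SB203580, 1 was called, and the number was 0 with no filter, with a minimum signal of 200, with the correlation of z scores allowed for, with either version alone, and without the SB203580 array of day 4. With hybridization day as a block, the numbers were 3 in PD169316 against control, 1 in SB203580 against control and 1 between the compounds, and 253, 13 and 125 over all probe sets. The alternatives that name a day were chosen after seeing the data. Leaving out 1 array at a time gave 0 to 3 called probe sets in PD169316 against control, 0 to 1 in PD169316 against SB203580 and 0 to 1 in SB203580 against control, against 0 with all arrays. Leaving out any PD169316 array took Acta1 below the filter in that version, so it was then not tested. The third call without the second U74A control was the 5′ Actb control, at 1.30. The cause of the other changes was not tested.

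Over all probe sets, 101 were called in PD169316 against control and 37 in PD169316 against SB203580. With the replicate block the numbers were 197 and 80, and the numbers of actin calls were 2 and 1. Deviations of same-numbered arrays from their group means correlated at 0.21 on U74A and at 0.17, 0.08 and 0.18 on U74Av2. Same-numbered arrays also share the hybridization day, except the second SB203580 array of U74Av2, which took part in the pairings of 0.08 and 0.18. The counts over all probe sets were 1 and 3 with no filter, 31 and 17 without a trend, 12 and 6 with the correlation of z scores allowed for, 9 and 3 on U74Av2 alone and 1 and 0 on U74A alone, and 23 to 166 and 11 to 111 when 1 array was left out. They were 30 without the day 3 controls and 17 without the day 4 array. SB203580 against control had 0, and 2 with no filter or with the block. The interaction had 0, and 403 with no filter. Among 1071 fold changes of members under alternatives, 1018 kept their side of the threshold within the replicate spread, 28 moved further, 21 lost a call and 4 gained one. Under quantile normalization, 87 of 96 group means of signals and of the 3′ to 5′ ratio moved by less than the spread between replicates. A block on hybridization day could not be run for the line, because no day holds both lines, and in the interaction it called 0. Half-widths of 95% intervals on U74A had a median of 1.10 on the log2 scale for PD169316 against control.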
